A study of Mus musculus with 48 samples.

Results

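The Forkhead box genes were described here through the open chromatin around them in P19 mouse embryonic teratoma cells, a pluripotent line that makes its own NODAL and GDF3. The 39 members are the Fox genes from Foxa1 to Foxs1 that were chosen by name, and a region was taken as near a member when its nearest base lay within 50 kb of a curated RefSeq transcription start site (TSS) of that gene in mm10. This gave 542 regions of the 287329 found by joining the authors' 4 ATAC-seq peak lists, in which a peak is a stretch where the transposase cut more often than in the DNA around it. Of these regions, 512 lay near 1 member, 19 near 2 and 11 near 3, because Foxc2, Foxf1 and Foxl1 on chromosome 8, Foxd2 and Foxe3 on chromosome 4, and Foxf2 and Foxq1 on chromosome 13 are neighbours.

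Each list stands for a signalling state. In the SB-431542 state, cells were kept overnight in 10 µM of this inhibitor of the type I Activin and NODAL receptors, which was then washed out and put back for 1 h. The 1 h and 8 h Activin states had the same overnight inhibition and were then treated with Activin at 20 ng/ml, for either 1 h or 8 h. Untreated cells received neither agent, so that their signalling was autocrine and chronic, and they differ from the other states also in not having been inhibited overnight. All 4 states are 1 cell line in serum. The labels list 48 libraries, 12 per state in 2 biological replicates, and the authors merged them into 1 list per state, so the spread between replicates cannot be had from the lists, no p-value is given, and every difference below is between 2 lists.

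The lists hold 234758 peaks with SB-431542, 233336 at 1 h, 209212 at 8 h and 220004 in untreated cells. They hold no read counts. From the lowest local background in each list, the depth at 1 h, 8 h and in untreated cells was estimated as 92.9%, 79.3% and 85.1% of that with SB-431542, and the list of the shallowest state is the shortest. Of 8 pluripotent cell genes fixed as markers, 7 had a promoter peak in every list and Dppa4 in some, whereas of 8 markers of other cell types 2 had one in every list and 5 in none.

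Forkhead box proteins are transcription factors that share a winged helix DNA-binding domain and bind variants of the letters GTAAACA. FOXA proteins are pioneer factors of the endoderm that can bind DNA within nucleosomes. FOXH1 is the factor through which activated SMAD2 and SMAD4 reach many NODAL target genes, at sites like AATCCACA. FOXO proteins are held out of the nucleus by AKT and can also join SMAD complexes. Other members are best known from single lineages, such as FOXC and FOXF proteins in mesoderm, FOXD3 in the neural crest and in pluripotent cells, and FOXM1 in dividing cells.

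A peak reached the promoter of most members in all 4 states. A promoter was taken as the 1000 bp before to 100 bp after any TSS of a gene, and it was called open when a peak overlapped it by at least 1 bp. By this rule 33 of the 39 genes were open in every list (84.6% of members against 71.2% of the 21000 coding genes), 5 were open in no list (23.6% of coding genes), and Foxl1 was open in 1 list. With the centre of the peak required in the promoter, 15 were open in every list and 18 in none. The closed promoters were those of Foxi1, Foxi2, Foxn1, Foxn3 and Foxr1. In the T-box family 14 of 17 promoters were open in every list, and in the SOX family 18 of 19.

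Closed promoters had few CpG dinucleotides, as did those of most closed coding genes, and the letters of a pair of closed and a pair of open promoters show the contrast. The 200 bases before the TSS are given in the direction of the gene, from the RefSeq promoter table (GRCm38, the assembly of mm10), in which 25 of the 39 members matched, with each CG in capitals. Foxi1 and Foxi2 direct inner ear, kidney and placode cell types, Foxk2 and Foxj3 are broadly expressed.
Foxi1, chr11:34208090-34208289, strand -: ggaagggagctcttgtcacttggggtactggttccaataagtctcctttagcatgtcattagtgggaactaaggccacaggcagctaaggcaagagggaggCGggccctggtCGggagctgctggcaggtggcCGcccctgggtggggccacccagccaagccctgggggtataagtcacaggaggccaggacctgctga
Foxi2, chr7:135410167-135410366, strand +: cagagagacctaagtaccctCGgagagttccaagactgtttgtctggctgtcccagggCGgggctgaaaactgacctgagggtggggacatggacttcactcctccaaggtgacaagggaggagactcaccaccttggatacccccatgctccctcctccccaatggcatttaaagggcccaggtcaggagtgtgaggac
Foxj3, chr4:119539461-119539660, strand +: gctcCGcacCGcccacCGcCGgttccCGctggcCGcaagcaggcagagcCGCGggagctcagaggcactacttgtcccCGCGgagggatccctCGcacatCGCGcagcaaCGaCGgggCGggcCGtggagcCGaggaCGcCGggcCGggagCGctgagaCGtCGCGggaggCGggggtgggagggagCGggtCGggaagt
Foxk2, chr11:121259787-121259986, strand +: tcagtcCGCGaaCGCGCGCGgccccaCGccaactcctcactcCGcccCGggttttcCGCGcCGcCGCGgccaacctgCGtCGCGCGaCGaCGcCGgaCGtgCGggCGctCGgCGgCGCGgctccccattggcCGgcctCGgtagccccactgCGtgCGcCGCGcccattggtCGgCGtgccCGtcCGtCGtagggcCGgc
In these 200 bases Foxi1 had 3 CpGs and Foxi2 had 2, whereas Foxj3 had 28 and Foxk2 had 40. Counted in the genome over the 250 bases before the most upstream TSS of every gene, the 33 open Fox promoters had a median of 21 CpGs (range 3 to 48) against 15 for the 14955 coding promoters open in every list. The 5 closed Fox promoters had a median of 5 (range 3 to 15) against 2 for closed coding promoters. The groups overlapped: Foxr1 was closed with 15 CpGs, and Foxh1, the SMAD partner, was open in every list with 3.

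The open Fox promoters were weakly enriched. The fold enrichment that the authors deposited is the ratio of the pileup in a peak to its local background, and the highest value at a promoter was used. With SB-431542 the 33 promoters ran from 1.86 at Foxa1 over a median of 2.83 to 5.39 at Foxj3, beside a median of 4.64 for coding promoters. The Fox medians in the other lists were 2.77 at 1 h, 2.81 at 8 h and 2.95 in untreated cells, beside coding medians of 4.46, 4.40 and 4.30. In each of the 4 lists, 32 of the 33 Fox promoters lay below the coding median, and the exception in each was Foxj3, with 5.39, 4.99, 4.53 and 4.73 in the order SB-431542, 1 h, 8 h and untreated, an order kept for every run of 4 values below. 

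Fox promoter peaks were also wide and lay on a high local background. Their median width with SB-431542 was 2222 bp, against 1452 bp at coding promoters, and 17 of 33 were wider than 2 kb (22.7% of coding promoters). The background, solved from the deposited fold enrichment and p-value, had a median of 106 reads per bp at Fox promoters and 76.1 at coding promoters with SB-431542, and 26 of 33 Fox promoters lay above the coding median. The pileup itself differed less, with medians of 337 and 368 reads per bp, and 21 of 33 Fox promoters lay below the coding median. A local background that includes the flanks of a wide open stretch enters this ratio, and its part in the low fold enrichment was not tested.

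**Figure D1:**
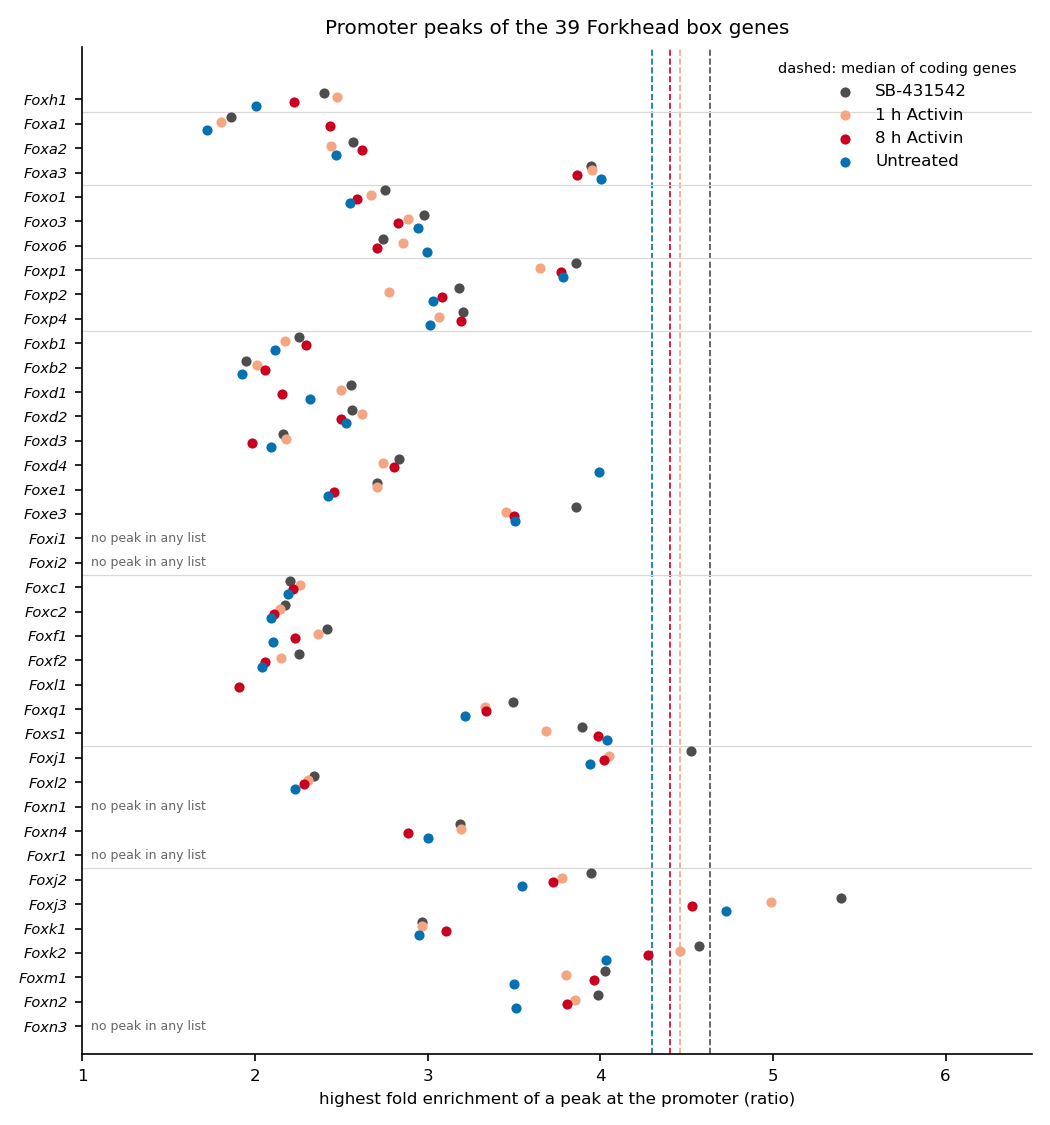
Highest fold enrichment (ratio, x axis) of a peak at the promoter of each of the 39 genes (y axis, ordered by role, with grey lines between roles), with 1 point per list and a dashed line at the median of coding promoters open in every list. Of the 33 genes with 4 points, 32 lie left of the dashed line in each list, Foxj3 lies right of it, and 5 genes have no point.

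Promoter fold enrichment changed little between lists. The median log2 ratio to SB-431542 was -0.05 at 1 h, -0.04 at 8 h and -0.09 in untreated cells, close to the coding medians of -0.05, -0.06 and -0.09. Of the 33 promoters, 23 were lower than with SB-431542 at 1 h (80.0% of coding promoters), 26 at 8 h (74.7%) and 29 in untreated cells (82.98%). The values outside the middle 90% of coding promoters were Foxa1 at 8 h and Foxd4 and Foxo6 in untreated cells. Foxa1 read 1.86, 1.81, 2.44 and 1.72, and its 8 h value came from a peak of 5699 bp, while the promoter peak in the other lists was 1802 to 1835 bp wide. The whole region over this TSS held 2 peaks in each of those lists and 1 at 8 h. Its highest values were 2.97, 2.57, 2.44 and 2.94, lowest at 8 h, so the direction there depends on the measure. Foxd4 read 2.83, 2.74, 2.81 and 3.99, a log2 ratio of 0.49 in untreated cells. That value came from a separate peak of 931 bp which entered the promoter window from upstream, and the peak over the gene, which ended just short of the TSS, had 2.60. A peak of 567 bp at 3.91 and one of 543 bp at 3.55 stood in the same place at 1 h and 8 h, just outside the window, and with SB-431542 both places lay in 1 peak of 3356 bp.

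The regions near Fox genes were shared between lists more often than regions at large. Of the 542, 359 (66.2%) had a peak in every list, against 56.6% of all regions and 62.1% of the 117578 regions within 50 kb of any coding gene's TSS. The share was higher near T-box (71.85%) and SOX genes (71.22%) and was 61.66% near SMAD and partner genes. The median width near Fox genes was 824 bp, against 668 bp for all regions. It was 988.5 bp near T-box, 998 bp near SOX and 834 bp near SMAD and partner genes. By their centre, 47 of the 542 lay at a promoter, but only 15 of these at a promoter of a member and 32 at that of another gene. Another 208 lay in introns, 140 of them of members, 230 were intergenic, 44 lay in exons and 13 at a gene end.

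A member had a median of 14 regions, against 11 for coding genes, and the number ran from 4 at Foxq1 to 64 at Foxp1. Foxp1, which acts in lymphocytes, lung and the nervous system, has 4 TSSs spread over a long gene, so that its windows cover more sequence. Foxp2, known for its part in vocal learning circuits, followed with 31 regions, and Foxm1 with 24. Foxh1 was the 1 member whose regions all had a peak in every list.

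**Figure D2:**
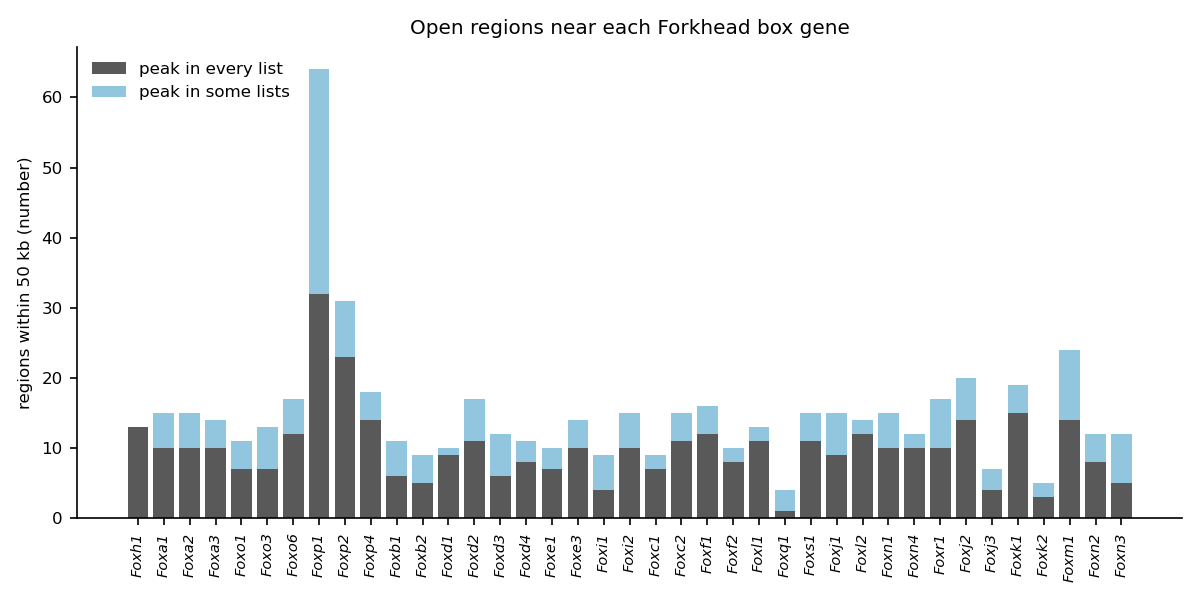
Number of regions within 50 kb of a TSS (y axis) for each of the 39 genes (x axis, ordered by role), split into regions with a peak in every list (dark) and in some lists (light). Foxp1 has 64 regions, of which 32 have a peak in every list, and all 13 Foxh1 regions do.

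Regions gained against SB-431542 were few at 1 h and more numerous later, whereas losses were of like number in the 3 signalling lists. At 1 h, 18 of the 542 regions were gained, meaning a peak there and none with SB-431542 (3.32%; 9.48% of all regions and 5.82% of those near coding genes). In the same list 56 were lost (10.3%; background 9.86%). At 8 h 52 were gained (9.59%; background 8.12%) and 63 lost (11.6%; background 17.1%). In untreated cells 52 were gained (9.59%; background 10.6%) and 62 lost (11.4%; background 15.6%). Gains at 1 h were thus rarer near Fox genes than in the background, as they were near T-box (6.30%), SOX (2.58%) and SMAD and partner genes (3.11%), and losses at 8 h and in untreated cells were too, while the other shares lay within 2 percentage points of it. A low score was common among gained peaks: 77.8% of those at 1 h, 78.8% at 8 h and 73.1% in untreated cells had a -log10 q under 5, as had 93.8%, 78.4% and 77.0% of all gained regions. With a -log10 q of at least 5 required of every peak, 5 of 413 regions were gained at 1 h (1.21%; 3.73% of all regions), 18 at 8 h (4.36%; 6.70%) and 23 in untreated cells (5.57%; 9.40%), so that each share of gains was then below the background.

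The 359 shared regions were compared by rank. In each list the highest fold enrichment of a region was turned into a percentile among all 162505 regions with a peak in every list, and the percentile with SB-431542 was subtracted from that of each signalling list to give a shift. At 1 h, 31 regions near Fox genes were more than 10 points higher (8.64%; background 11.3%) and 41 more than 10 points lower (11.4%; background 12.1%). At 8 h, 46 were higher (12.8%; background 18.7%) and 56 lower (15.6%; background 18.5%). In untreated cells 51 were higher (14.2%; background 19.9%) and 59 lower (16.4%; background 18.8%). Each of these 6 shares was below that of all regions. The count of 31 at 1 h fell to 19 when peaks had to cover 50% of a region or when -log10 q was ranked, and to 8 when the estimated pileup was ranked, which also gave 30 higher in untreated cells and 37 lower at 8 h. Regions near coding genes also shifted less often than all regions in each of the 6 counts, with 14.5% higher at 8 h and 16.0% in untreated cells.

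**Figure D3:**
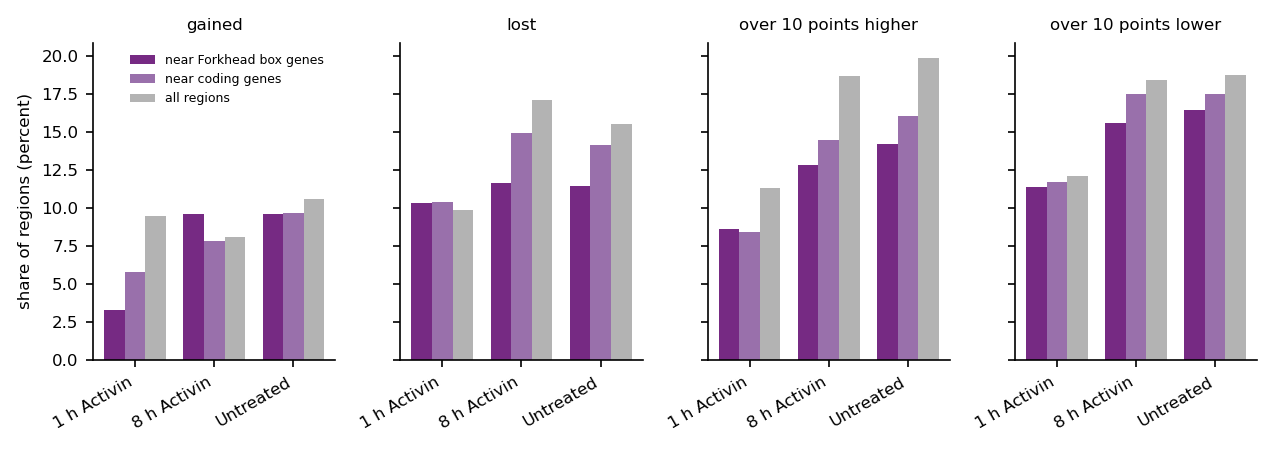
Share of regions (percent, y axis) gained, lost, more than 10 percentile points higher or lower than with SB-431542, in each of the 3 signalling states (x axis), for regions near Forkhead box genes, near coding genes and overall. Gained and lost shares are of all regions in a set, and the shifts of those with a peak in every list. At 1 h 3.32% of the Fox regions are gained against 9.48% of all regions.

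By the lists that held them, 22 regions had a peak at 8 h and in untreated cells only (4.06%; 2.65% of all regions), 24 at 8 h only (4.43%; 2.95%) and 25 in untreated cells only (4.61%; 4.79%). Peaks at 1 h alone numbered 10 (1.85%; 5.41% of all regions), of which 5 lay near Foxp1. A peak in every signalling list and none with SB-431542 was found in 3 regions (0.55%; 1.59%), which lay near Foxa2, Foxn1 and Foxo6. With SB-431542 alone there were 28 (5.17%; 4.91%).

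Foxh1 encodes the DNA-binding partner of the activated SMAD2-SMAD4 complex. Its promoter read 2.40, 2.48, 2.22 and 2.01, and the log2 ratio of -0.26 in untreated cells was the lowest of the 33 promoters, inside the range of the middle 90% of coding promoters (-0.31 to 0.11). All 13 regions within 50 kb had peaks in every list, so that none was gained or lost. The Foxh1 window is dense in other genes: 5 of the 13 centres lay at promoters of Lrrc14, Mfsd3, Gpt or Cyhr1. The highest region, in an exon of Tonsl at +29.7 kb, read 7.46, 6.93, 6.63 and 6.65 and moved by less than 2 percentile points. The largest change was a rise of 21.9 points in untreated cells at the Gpt promoter at -25.9 kb, which read 2.61, 2.83, 2.97 and 3.37. The promoter region of Foxh1 moved the other way there, 19.0 points lower. At the promoters of Lrrc14 (-40.0 kb), Mfsd3 (-30.8 kb) and Cyhr1 (+8.3 kb) the values were 4.40, 4.22, 3.87 and 3.75, then 3.60, 3.42, 3.45 and 3.27, then 4.22, 4.04, 3.59 and 3.62, lower in each signalling list than with SB-431542. The second Cyhr1 promoter region, at +12.6 kb, read 2.52, 2.67, 2.75 and 2.67. Regions at -1.2 kb, in an intron of Ppp1r16a, and at +3.2 kb, in an intron of Kifc2, flank the gene and read 3.56, 3.79, 3.99 and 3.56, and 2.20, 2.34, 2.22 and 2.59. The remaining 4, at -45.1, -27.7, +23.0 and +43.4 kb, ran from 2.31 to 4.13, and their largest shift was -8.39 points, at -27.7 kb in untreated cells.

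Foxa2, a pioneer factor needed for the node, the floor plate and definitive endoderm, changed at several distal regions while the fold enrichment of its promoter stayed level. A region of 1281 bp at -37.4 kb (chr2:148084354-148085634) had no peak with SB-431542 or at 1 h and read 2.89 at 8 h and 2.57 in untreated cells. Among gained regions near Fox genes it had a -log10 q of 18.9 at 8 h and 17.2 in untreated cells, the highest of the family in untreated cells. Nearby, at -34.7 kb, the fold enrichment read 5.93, 4.77, 3.56 and 3.37, a drop in rank of 22.1 points at 8 h and 24.8 in untreated cells. There the local background rose from 37.9 reads per bp with SB-431542 to 41.8, 45.3 and 58.0, and the estimated pileup, scaled to the median of shared regions, moved by 0.05, -0.12 and 0.06 on the log2 scale. The fall in fold enrichment at -34.7 kb was thus not seen in the pileup.

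Downstream of Foxa2 the intergenic region at +20.8 kb read 3.18, 3.31, 4.18 and 5.87, and its estimated pileup rose by 0.57 at 8 h and 0.81 in untreated cells on the log2 scale. This was the largest fold enrichment within 50 kb of Foxa2 in untreated cells. The region at +3.8 kb read 2.29, 2.90, 3.22 and 2.63. Its rank rose by 26.3 points at 1 h, 29.9 at 8 h and 14.0 in untreated cells. Its scaled pileup moved by 0.29, 0.05 and -0.50 on the log2 scale. The rise at 8 h was thus hardly seen in the pileup, and the direction in untreated cells depends on the measure. The promoter itself read 2.57, 2.44, 2.62 and 2.47, within 3.29 percentile points of SB-431542 throughout. Its scaled pileup moved by -0.11, -0.13 and -0.35 on the log2 scale, so it was lower in untreated cells by that measure. Of the 15 Foxa2 regions 10 had a peak in every list. Close to the gene, the regions at -5.8 kb (3.21, 2.98, 3.39 and 3.12), -1.4 kb (3.01, 2.87, 3.14 and 2.76) and +14.6 kb (3.36, 3.35, 3.27 and 3.31) moved by at most 5.38 points. In untreated cells their scaled pileup moved by -0.21, -0.35 and -0.30 on the log2 scale. The exon region at +0.6 kb was the weakest, at 1.33, 1.34, 1.41 and 1.44. The region at +39.7 kb, with 3.81, 3.89, 3.02 and 3.93, was lower at 8 h alone. Weak peaks came and went: -13.9 kb had none with SB-431542 and 1.75, 1.68 and 1.82 in the others, and +31.7 kb had 1.89 and 2.01 with SB-431542 and at 1 h and none later. At +43.9 kb SB-431542 read 1.89 and 8 h 2.11, with no peak in the other lists, and +34.1 kb had a peak at 8 h only, of 2.14.

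The letters of the gained region and of the matches around Foxa2 are given 5′ to 3′ on the plus strand of GRCm38. They show which of the changing regions hold the exact strings searched for. Capitals mark GTAAACA, AATCCACA or CAGACA, a letter string bound by SMAD proteins, on either strand. The first line is the central 300 bases of the gained region, and the next are 60 bases around a match.
Foxa2 -37.4 kb, chr2:148084844-148085143: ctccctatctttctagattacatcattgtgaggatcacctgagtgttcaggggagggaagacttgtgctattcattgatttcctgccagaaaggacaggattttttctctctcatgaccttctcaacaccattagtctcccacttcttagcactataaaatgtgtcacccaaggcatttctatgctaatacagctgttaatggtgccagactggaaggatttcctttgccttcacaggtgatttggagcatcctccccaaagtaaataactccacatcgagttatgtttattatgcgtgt
Foxa2 -34.7 kb, chr2:148082750-148082809: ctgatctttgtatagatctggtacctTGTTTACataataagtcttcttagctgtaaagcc
Foxa2 +3.8 kb, chr2:148040460-148040519: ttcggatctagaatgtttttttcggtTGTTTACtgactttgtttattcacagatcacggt
Foxa2 +10.2 kb, chr2:148034577-148034636: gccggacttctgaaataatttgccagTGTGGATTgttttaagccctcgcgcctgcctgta
Foxa2 +20.8 kb, chr2:148020943-148021002: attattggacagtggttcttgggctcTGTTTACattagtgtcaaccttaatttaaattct
None of these exact strings occurred anywhere in the 1281 bp of the gained region at -37.4 kb. Variants were not searched for, and gtaaata, which differs from GTAAACA by 1 letter, stands in the bases printed for it. The absence of a forkhead site there is therefore not shown. The region at -34.7 kb held 1 GTAAACA and 3 CAGACA, the one at +3.8 kb 1 and 5, and the one at +20.8 kb 1 and 8. The region at +10.2 kb held 1 AATCCACA and read 1.52, 1.62, 1.66 and 1.64. Wide regions hold more letters, and the ones at +3.8 and +20.8 kb were 4910 and 4943 bp.

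**Figure D4:**
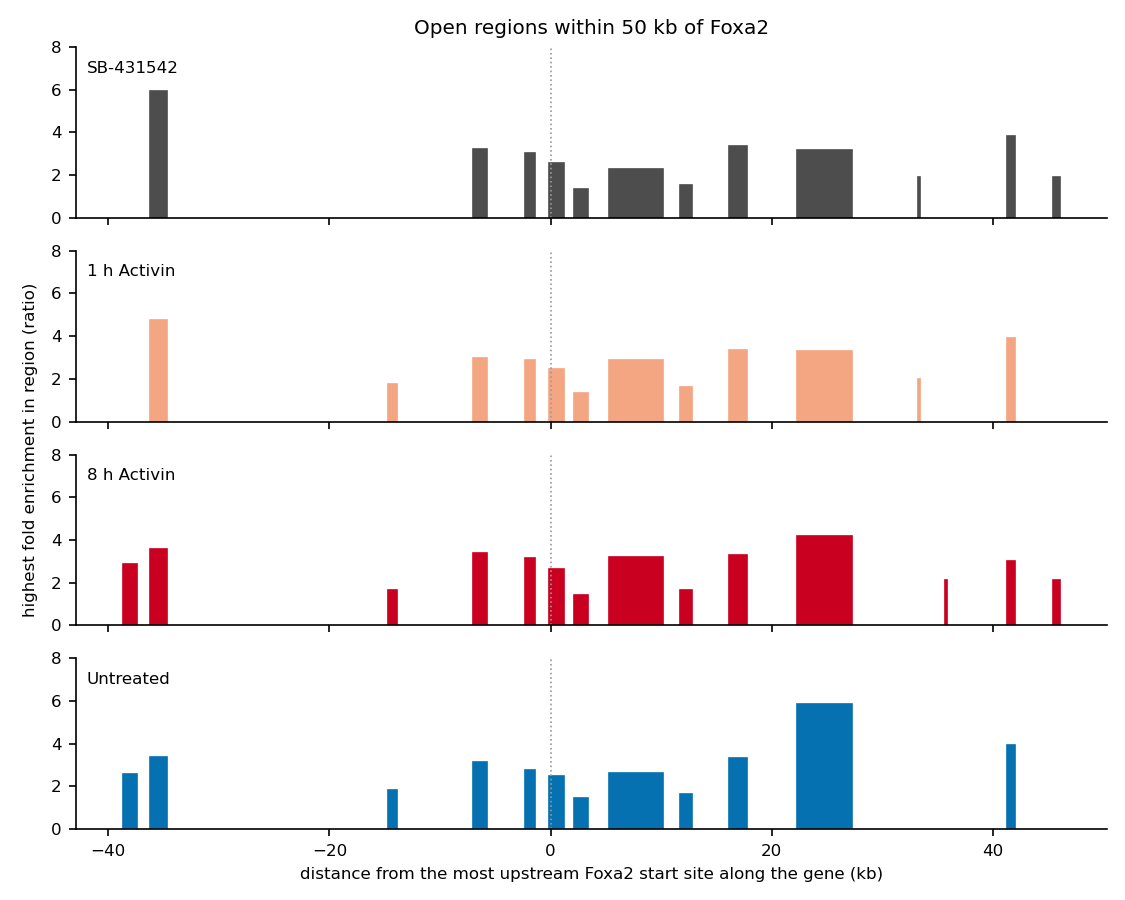
Regions within 50 kb of a Foxa2 TSS, 1 panel per list, as bars from the start to the end of the region (x axis, kb from the most upstream of 3 TSSs, so that downstream bars lie slightly beyond the distances in the text, which run from the nearest TSS) and of the height of the highest fold enrichment (y axis, ratio). The leftmost bar appears at 8 h and in untreated cells only, the bar beside it falls from 5.93 to 3.37 and the wide bar past 20 kb rises from 3.18 to 5.87.

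Foxa1, a paralogue with overlapping roles in endoderm, had 15 regions, 10 of them in every list, and its largest fall was at +29.7 kb, with 2.71, 2.40, 2.10 and 1.77 (44.3 points lower in untreated cells). A region at -17.8 kb, at the promoter of Ttc6, rose by 19.8 points at 1 h, reading 2.26, 2.63, 2.08 and 2.48, and lay below SB-431542 at 8 h. Foxa3, a liver and gut factor, kept its promoter at 3.95, 3.95, 3.87 and 4.00. Over the 3 FOXA genes, 44 regions were found, of which 2 were gained at 1 h (4.55%; 9.48% of all regions), 5 at 8 h (11.4%; 8.12%) and 7 in untreated cells (15.9%; 10.6%).

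Foxo3, a stress-responsive FOXO factor, had fewer peaks at 1 h than in any other list. Its promoter read 2.98, 2.89, 2.83 and 2.94. Of its 13 regions, 12 had a peak with SB-431542, 8 at 1 h, 10 at 8 h and 11 in untreated cells. Lost against SB-431542 were 4 of 13 at 1 h, 3 at 8 h and 1 in untreated cells (9.86%, 17.1% and 15.6% of all regions). The 542 regions near Fox genes also had the fewest peaks at 1 h, with 453, 415, 442 and 443 regions holding one. These were 0.197%, 0.181%, 0.216% and 0.205% of all regions with a peak in the same list. Over all regions, and over those near coding genes, the fewest held a peak at 8 h. The intron region at +25.1 kb read 2.97, 1.84, 2.30 and 2.68, and its rank fell by 43.6 points at 1 h and fell by 6.62 points in untreated cells. Another intron region, at +29.0 kb, read 4.33, 3.41, 5.96 and 4.78, below SB-431542 at 1 h and above it at 8 h. At -18.4 kb a peak of 3.01 with SB-431542 was missing at 1 h and read 2.87 at 8 h and 2.62 in untreated cells. An intron region at +34.6 kb was also missing at 1 h alone, with 1.74, 2.21 and 2.19 in the others. Only 1 Foxo3 region was gained in any list, at -21.4 kb at 8 h with 1.60. The intron regions at +6.5 kb (1.58 and 1.89) and +37.4 kb (2.06 and 2.18) had peaks with SB-431542 and in untreated cells and none at 1 h or 8 h. Upstream, -17.3 kb read 2.51 with SB-431542 and 2.03 at 1 h and had no later peak. The 3 upstream regions at -35.9 kb (3.77, 2.93, 2.83 and 3.00), -31.2 kb (3.95, 3.36, 3.70 and 3.75) and -19.9 kb (2.33, 2.01, 2.00 and 1.96) were highest with SB-431542.

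The region at +25.1 kb (chr10:42251112-42251617) is shown because it fell most at 1 h among the shared regions near Fox genes and holds a forkhead match. Its central 300 bases carry the longer string GTAAACAA, preferred by FOXO proteins, and CAGACA on the minus strand, with capitals as above.
Foxo3 +25.1 kb, chr10:42251215-42251514: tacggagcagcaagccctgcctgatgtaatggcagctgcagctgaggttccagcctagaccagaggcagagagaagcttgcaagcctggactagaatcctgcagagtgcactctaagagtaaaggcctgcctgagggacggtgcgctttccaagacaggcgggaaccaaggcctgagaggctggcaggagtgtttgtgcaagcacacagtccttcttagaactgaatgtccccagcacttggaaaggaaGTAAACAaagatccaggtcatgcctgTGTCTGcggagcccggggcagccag
It lies in an intron of Foxo3. The other forkhead matches in the Foxo3 window were 1 at -14.0 kb, 2 in the promoter region, which is 5344 bp wide, and 1 at +6.5 kb. Those at -14.0 kb and in the promoter region were also the longer GTAAACAA, and the one at +6.5 kb was not. The region at -14.0 kb read 2.83, 2.85, 2.63 and 2.96 with no shift over 6.46 points.

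Foxo6, the FOXO member of the brain, had peaks in 14, 13, 15 and 16 of its 17 regions. The intergenic region at -45.0 kb (chr4:120332263-120334319) read 3.90, 5.98, 5.13 and 4.92, so that every signalling list was above SB-431542 and 1 h was highest. Its pileup was higher by 0.90 at 1 h, 0.70 at 8 h and 1.01 in untreated cells on the log2 scale, the largest rise at 1 h among the named shared regions. At -38.3 kb neither SB-431542 nor 1 h had a peak, whereas 8 h read 3.39 and untreated cells 2.48. At +38.2 kb the 3 signalling lists read 1.81, 2.32 and 1.68 and SB-431542 had no peak. A narrow region of 201 bp at +30.5 kb went the other way, with 2.05 with SB-431542, 2.14 in untreated cells and no peak at 1 h or 8 h. The region at -45.0 kb held 5 CAGACA and no exact GTAAACA or AATCCACA over its 2057 bp, with variants not searched for. Its central 300 bases were as follows.
Foxo6 -45.0 kb, chr4:120333141-120333440: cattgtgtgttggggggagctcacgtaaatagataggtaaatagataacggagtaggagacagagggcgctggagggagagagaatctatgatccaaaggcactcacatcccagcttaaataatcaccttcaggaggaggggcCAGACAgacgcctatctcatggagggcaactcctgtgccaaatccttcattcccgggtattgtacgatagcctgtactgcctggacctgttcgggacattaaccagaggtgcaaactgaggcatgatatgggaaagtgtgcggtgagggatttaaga
The Foxo6 promoter read 2.74, 2.86, 2.71 and 3.00. Foxo1, which acts in insulin signalling and vessels, had a promoter at 2.75, 2.67, 2.59 and 2.55 and an intron region at +31.1 kb that rose by 39.8 points at 8 h, reading 2.16, 1.96, 3.40 and 2.90.

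The FOXP genes held 113 regions. Foxp1 read 3.86, 3.65, 3.78 and 3.78 at its promoter and held one of the 5 highest regions of the family, at +18.1 kb in its own intron, with 7.61, 5.87, 7.21 and 7.02. The intron region at +48.3 kb read 2.94, 2.73, 1.69 and 1.78, a fall of 54.9 points at 8 h and 49.99 in untreated cells, and its estimated pileup fell by 1.02 and 0.90 on the log2 scale. A region at +41.3 kb, which read 3.10 with SB-431542 and 3.01 at 1 h, had no peak in the later lists. It was the lost region with the highest -log10 q of the Foxp1 window, 20.9. Foxp1 thus kept these 2 intron regions at 1 h and had lost or lowered them in the later lists.

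Foxp2 read 3.18, 2.77, 3.09 and 3.03 at its promoter, the lowest log2 ratio of the family at 1 h (-0.20). These are the highest peaks over its 2 TSSs and need not be the same peak in each list. Their widths were 1812, 3349, 1671 and 2711 bp, and their backgrounds 53.9, 54.5, 41.1 and 206 reads per bp. An intron region of Foxp2 at +47.2 kb read 2.29, 1.67, 1.81 and 1.89. Foxp4, a lung and gut factor, read 3.20, 3.06, 3.20 and 3.02 and gained a region at -44.5 kb, with no peak with SB-431542 or at 1 h, 2.05 at 8 h and 2.67 in untreated cells. 

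Among the 10 genes grouped here under neural plate, neural crest and placodes, a coarse label, 8 promoters were open in every list. Those of Foxi1 and Foxi2 were open in none. The nearest region to the Foxi1 TSS lay 4.72 kb upstream and had a peak in every list (3.76, 2.75, 3.43 and 3.21). The nearest to Foxi2, at +1.65 kb in its exon, had a peak at 8 h only, of 1.61. A further Foxi2 region at +10.4 kb rose by 47.8 points at 8 h, the largest rise near any Fox gene, with 1.85, 1.70, 2.98 and 2.03. Its value in untreated cells was thus closer to SB-431542 than to 8 h. All 4 regions gained near Foxi2 at 8 h, of its 15, were absent from the other lists. Of all regions, 8.12% were gained at 8 h and 2.95% had a peak at 8 h only. The 4 were weak, with a fold enrichment of at most 2.08 and a -log10 q of at most 4.27.

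Foxd1, a kidney stroma and forebrain factor, rose at +4.0 kb, with 2.11, 2.31, 2.78 and 3.10 (36.2 points in untreated cells), and fell at -45.6 kb, with 2.79, 1.98, 1.87 and 1.89. The first held 1 AATCCACA and the second 2 GTAAACA over 3371 bp, in which SB-431542 had 2 peaks and each other list 1. Foxd2 lost a region at +41.0 kb in untreated cells, with 3.40 and 3.31 with SB-431542 and at 1 h, 1.71 at 8 h and none in untreated cells. The next region, at +49.8 kb, read 4.11, 4.28, 2.01 and 2.91, the largest fall of the family at 8 h (57.2 points). Both lie on the side of Foxd2 away from Foxe3, a lens factor whose window shares 14 regions with it. Upstream of Foxe3, at -3.0 kb, 2.09 with SB-431542 stood beside 2.63, 2.62 and 2.08.

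Foxe1, a thyroid factor, had at +23.6 kb the values 2.55, 1.64, 3.63 and 2.49, lowest at 1 h and highest at 8 h. That region held 1 AATCCACA. The region over the Foxd4 promoter shifted up by 26.2 points at 1 h, from the separate peak described above, and a weak region at +2.6 kb was gained at 1 h and 8 h with 1.80 and 1.79 and held 1 GTAAACAA. The intron of Cbwd1 at -25.5 kb from Foxd4 held one of the 5 highest regions, at 7.17, 5.94, 6.66 and 7.63. Foxd3 kept a weak promoter, with 2.17, 2.18, 1.98 and 2.09. Foxb1 and Foxb2 lay between 1.93 and 2.30, Foxd2, Foxe1 and Foxd1 between 2.16 and 2.71, and Foxe3 between 3.45 and 3.86.

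Of the 7 genes grouped here under mesoderm and mesenchyme, a coarse label that need not hold for each, 6 promoters were open in every list. Foxc1 and Foxc2, of the somites, vessels and heart, lay between 2.10 and 2.26, Foxf1 and Foxf2, of the gut and lung mesenchyme, between 2.04 and 2.42, Foxq1 between 3.21 and 3.50 and Foxs1 between 3.68 and 4.04. Foxl1, a gut mesenchyme factor, had a region starting 52 bp after its TSS with a peak in every list (1.93, 1.93, 1.91 and 1.83), but only the 8 h peak, at 1.91, reached the promoter window, so that its single open list rests on the window's edge. Regions with larger shifts lay at a distance. At -7.5 kb of Foxf1, in an intron of the divergent non-coding RNA Fendrr, the values were 2.80, 2.56, 2.01 and 1.86, 41.1 points lower in untreated cells. At -36.5 kb of Foxf1 they were 3.93, 2.43, 3.34 and 3.15, lowest at 1 h. At +18.3 kb of Foxc1, in an intron of Gmds, they were 1.85, 1.98, 2.58 and 2.52, higher by 36.2 points at 8 h.

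Of the 5 genes known from single tissues, Foxn1, of the thymus and hair, and Foxr1 were closed, and Foxj1, of ciliated cells, Foxl2, of the ovary, and Foxn4, of the retina, were open. Foxj1 read 4.53, 4.05, 4.02 and 3.94, Foxl2 2.35, 2.31, 2.28 and 2.23, and Foxn4 3.19, 3.19, 2.88 and 3.01. At -31.3 kb of Foxl2 the values were 2.24, 1.94, 3.50 and 3.30, higher by 37.8 points at 8 h and 34.5 in untreated cells. Of the 17 regions near Foxr1, 5 were lost at 1 h (29.4%; 9.86% of all regions), 5 at 8 h (29.4%; 17.1%) and 4 in untreated cells (23.5%; 15.6%). One of them, in Bcl9l at -45.6 kb, had a fold enrichment of only 1.43 with a -log10 q of 44.4. It lay on a local background of 1258 reads per bp, beside a median of 76.1 at coding promoters with SB-431542. The nearest region to Foxn1 was at +3.57 kb in an intron (2.49 and 2.05 with SB-431542 and at 1 h, none later), and the nearest to Foxr1 at +7.83 kb. An exon of Slc37a4 at +42.7 kb of Foxr1 held one of the 5 highest regions near the family, with 7.40, 6.91, 5.80 and 6.81.

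Of the 7 broadly expressed genes, Foxn3, a checkpoint factor, was closed in every list at its 1 curated TSS, with the nearest region 801 bp into the gene and a peak with SB-431542 (1.56) and in untreated cells (1.83). The other 6 were open in every list, and Foxj3, at 5.39, and Foxk2, at 4.57, had the highest promoters of the family with SB-431542. Foxm1, Foxn2 and Foxj2 lay between 3.95 and 4.03 in that list, and Foxk1 read 2.97. Foxm1, a driver of the G2 and M phase genes, read 4.03, 3.80, 3.96 and 3.50. In its window, at +11.8 kb and at the promoter of Tex52, the values were 4.63, 4.21, 2.53 and 2.64, a fall of 38.7 points at 8 h, and the pileup fell by 0.89 and 1.03 on the log2 scale at 8 h and in untreated cells. Among its gained regions, +7.2 kb, in its own exon, had a peak at 1 h only (1.28, with a -log10 q of 10.6). That peak lay on a local background of 670 reads per bp. The gained region at +45.8 kb, at the end of Nrip2, had a peak in untreated cells only (2.26, with a -log10 q of 10.9). Near Foxj2 the region at +35.7 kb, at the promoter of C3ar1, read 2.68, 2.71, 1.82 and 1.61, and that at -39.8 kb 3.44, 2.30, 2.45 and 2.06. Among the 5 largest rises of the family at 8 h were -13.2 kb of Foxn2 with 1.79, 1.82, 2.72 and 2.48, and +49.9 kb of Foxj3 in its intron with 2.27, 1.92, 3.56 and 3.19. The intron of Foxn2 at +13.6 kb held the highest value near any Fox gene, 8.20 at 8 h, beside 6.74, 7.69 and 7.78 with SB-431542, at 1 h and in untreated cells.

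**Figure D5:**
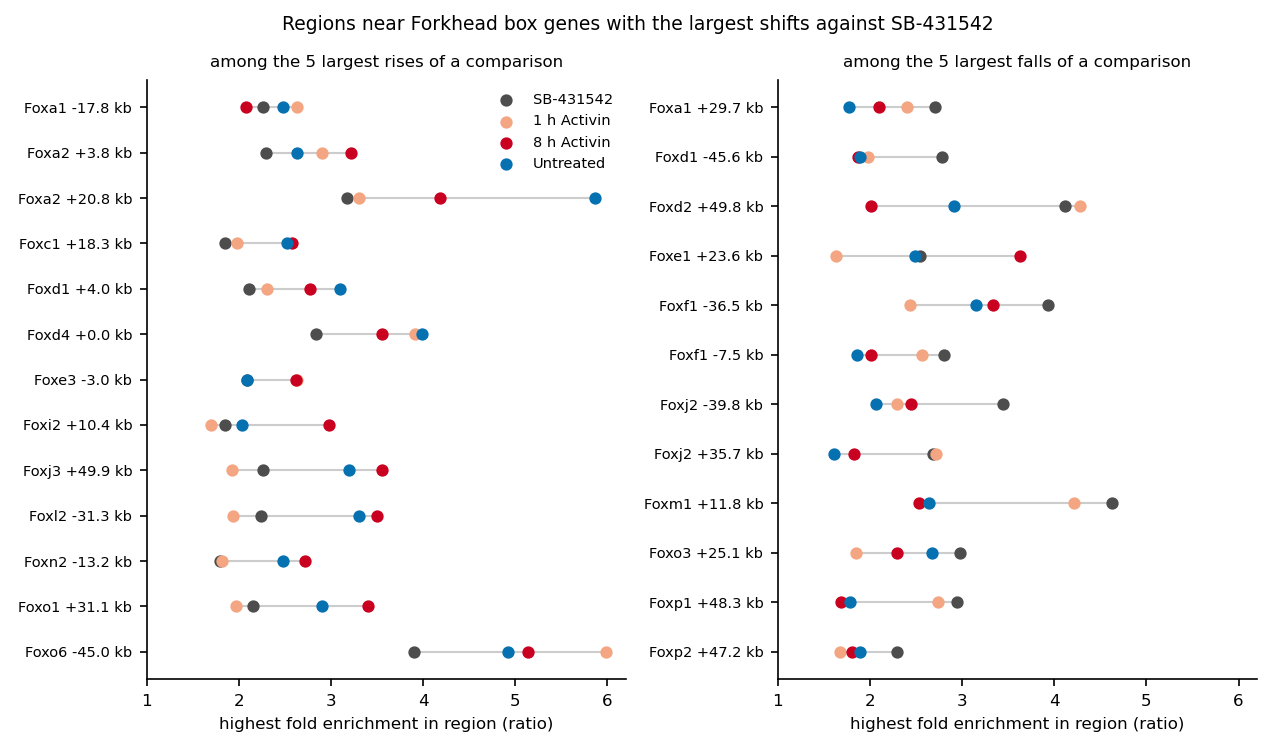
Highest fold enrichment (ratio, x axis) in the 4 lists for shared regions among the 5 largest rises (left) or falls (right) in percentile of a comparison with SB-431542, named by the nearest Fox gene and the distance from its TSS (y axis), with a grey line from the lowest to the highest value. At most of the rises 8 h and untreated lie to the right of SB-431542 and 1 h, as at Foxl2 -31.3 kb (2.24, 1.94, 3.50 and 3.30). Since the rises were picked by their shift above SB-431542, lying right of it in the comparison used follows from the choice.

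The binding letters were rare in the middle of the regions. In the central 300 bp, GTAAACA on either strand occurred in 12 of the 542 regions near Fox genes (2.21%; 4.34% of all regions), and its longer form GTAAACAA, which contains it, in 1 (0.18%; 1.38%). AATCCACA occurred in 9 (1.66%; 1.32% of all regions) and CAGACA in 126 (23.2%; 27.7%). The palindrome GTCTAGAC, also bound by SMAD proteins, occurred in 0 (0.28%), and CTTTGATC, a TCF string, in 6 (1.11%; 1.21%). The middle of the regions near Fox genes was richer in G and C than elsewhere, with a median of 51% against 47%, and its part in the lower share of GTAAACA was not tested.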

How the data were processed

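ATAC-seq of P19 cells was deposited as 1 broad peak list per signalling state. The authors removed adapters from 51-bp pairs using cutadapt 1.9.1, mapped the reads to mm10 using BWA 0.6.2, filtered them with bedtools 2.26.0, pooled the libraries of each state and dropped duplicates with Picard. Broad peaks came from MACS2 2.1.1.20160309, run with no control. Per the labels there are 48 libraries, whereas the methods name 8 samples, and how these relate is not known. The values the authors deposited per peak are the fold enrichment, a ratio of pileup to local background, and the -log10 p score and -log10 q value of the peak caller, which measure a peak against its background and not a difference between states. Merging replicates leaves no replicate spread, and a deeper list finds more weak peaks.

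Peaks of the 4 lists overlapping by at least 1 bp were joined into regions with Python 3.11.15 and pandas 2.3.3. A region's value is its highest fold enrichment per list. Local background and pileup were solved from fold enrichment and p-value with scipy 1.17.1, with 1 read added to each. TSSs are those of 45756 curated RefSeq transcripts of 26180 genes (GRCm38.p6, whose chromosomes are those of mm10), and sequences were read with pysam 0.24.0. The procedure was tested on simulated peaks. Every member is named with its promoter state. The regions named per comparison are the 3 gained and 3 lost with the highest -log10 q and the 5 largest rises and 5 largest falls in percentile, with the 5 highest fold enrichments and all regions of Foxh1, Foxo3 and Foxa2 added. The members, lists and rules were chosen with earlier results of these data known. Alternatives tried were a -log10 q of at least 5, lists of equal length, a 10 kb window, other promoter rules, a cover of 50%, joining within 200 bp and other region values.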

Additional observations from a re-analysis of the deposited data

How the results depend on the processing

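Each count near the Forkhead box genes was repeated under the other settings, and most stayed within 1.5 times of the value reported. With a -log10 q of at least 5, the regions gained against SB-431542 numbered 5 at 1 h, 18 at 8 h and 23 in untreated cells, out of 413 (1.21%, 4.36% and 5.57% against 3.73%, 6.70% and 9.40% of all regions). The 8 h share of gains thus turned from above the background to below it. Within 10 kb in place of 50 kb, fewer regions are taken, and 108 had a peak in every list. At 1 h, 8 h and in untreated cells, 4, 15 and 7 were gained and 8, 12 and 9 lost. In the same order 12, 11 and 11 were higher and 8, 13 and 12 lower. No shares or background were worked out for 10 kb, so these counts do not show whether the comparisons at 50 kb hold there. With the peak centre required in the promoter, 15 promoters were open in every list and 18 in none, with no count of coding genes under that rule. At 1 h the higher regions numbered 19 when peaks had to cover 50% of a region, 19 by the percentile of -log10 q and 8 by that of the estimated pileup, which also gave 30 higher in untreated cells and 37 lower at 8 h. The cause was not tested. Lists of equal length, joining peaks within 200 bp, width-weighted means and peaks that cover the TSS moved no count by more than 1.5 times. No paired analysis was possible because the replicates were merged before peaks were called. No replicate could be left out for the same reason. Since the lists hold no read counts, no limit can be set on a missing peak, and the 8 h list has 79.3% of the estimated depth with SB-431542.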
